A study of Mus musculus with 4 samples.

Results

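The natriuretic peptides and the proteins that set atrial heart muscle apart from ventricular muscle were followed in the ventricles of mice with and without the nuclear receptor ERRα, encoded by Esrra. The set held 10 genes: Nppa, Nppb, Myl4, Myl7, Sln, Bmp10, Clu, Stard10, Kcna5 and Pam. They are 10 of 8251 genes with a probe set of their own, and were read by 13 of the 12488 probe sets on the array. The genes were selected on their signals in knockout against wild type on these same arrays, beside their known tie to the atria. Their differences between genotypes are therefore given as descriptions, with no test. Another gene, Mycbp2, once carried the name Pam; its probe set was kept out, and its signal was 1022 and 2002 in wild type and 1280.0 and 1022 in knockout.

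The data were 4 one-colour arrays of total RNA from mouse ventricle at baseline. The labels name 2 samples from mice without ERRα (ERRa ko) and 2 from wild-type mice (ERRa wt), with no treatment in either group. The labels do not give strain, age, sex, the make-up of the deleted allele, or whether a sample was 1 animal or a pool. The comparison asks which transcripts differ when the receptor is absent before any stress is applied.

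Atrial natriuretic peptide and its sister from the ventricle are hormones that heart muscle releases when it is stretched; they act through a receptor that makes cyclic GMP, promoting salt loss and relaxing vessels. In the adult, Nppa and the light chains Myl4 and Myl7 are made mainly in the atria, and the ventricle turns the peptide genes on again under load. Raised Nppb and Nppa are widely used signs of a strained ventricle.

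The labels and signals agreed on the genotype. The 2 Esrra probe sets gave 2688 and 2828, and 8598 and 8038.5, in wild type against 83.6 and 55.2, and 922 and 1050.2, in knockout. Values are linear signals in arbitrary units, scaled to a trimmed mean (2% of probe sets dropped at each end) of 1499.6 on each of the 4 arrays. Signals under 110 were treated as being at a floor. Of 7453 probe sets bright enough to test, 1 passed limma's test at an adjusted p of 0.05, or 0.0134%. It was the weaker Esrra probe set, with both knockout arrays at the floor. The brighter Esrra probe set, 8.45-fold lower in the knockout, did not pass (limma adjusted p = 0.179), so a large difference could fail this test. The ratio of 5′ to 3′ signal of β-actin, a sign of RNA integrity, was 0.966 and 0.909 in wild type and 0.694 and 0.813 in knockout. That of Gapdh was 1.04 and 1.01 in wild type and 0.994 and 0.968 in knockout, closer between the genotypes. The part of RNA integrity in the differences was not tested. Since samples were whole ventricle, fewer cells of a type and less RNA per cell cannot be told apart.

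The promoters of 3 members with higher signal on both knockout arrays are shown. These genes had nonoverlapping groups and lie on different chromosomes. Pam, Sln and Myl4 were also higher without overlap, but are not shown. Sln had no window, and the Pam and Myl4 windows overlapped a longer RefSeq gene span. Each run is the 250 bases before the gene's start in RefSeq (GRCm38.p6), 5′ to 3′ on the gene's own strand. They are Nppa at chr4:148000472-148000721 (+), Myl7 at chr11:5898783-5899032 (-) and Stard10 at chr7:101316836-101317085 (+). Capitals mark matches on either strand to GATAA (bound by GATA factors), CATTCC (the M-CAT element), TNAAGTG (an NKX site), AGGTGT (a T-box site), TATAAA and the CArG box that serum response factor binds.
Nppa: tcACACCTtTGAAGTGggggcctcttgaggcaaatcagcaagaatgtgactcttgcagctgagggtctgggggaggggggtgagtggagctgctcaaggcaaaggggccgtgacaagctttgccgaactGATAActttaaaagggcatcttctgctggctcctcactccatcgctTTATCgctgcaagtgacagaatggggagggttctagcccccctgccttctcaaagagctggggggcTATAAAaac
Myl7: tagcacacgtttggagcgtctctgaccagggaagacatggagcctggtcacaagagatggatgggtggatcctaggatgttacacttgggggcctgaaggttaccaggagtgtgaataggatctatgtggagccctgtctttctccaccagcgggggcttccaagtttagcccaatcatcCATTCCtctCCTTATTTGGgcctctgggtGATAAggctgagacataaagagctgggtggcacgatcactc
Stard10: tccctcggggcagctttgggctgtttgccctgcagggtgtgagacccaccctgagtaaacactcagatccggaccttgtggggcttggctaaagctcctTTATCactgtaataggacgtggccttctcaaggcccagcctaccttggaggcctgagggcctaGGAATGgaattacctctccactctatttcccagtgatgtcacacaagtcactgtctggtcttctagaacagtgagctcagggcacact

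The Nppa window held GATAA at 121 and 75 bases before the start, the T-box and NKX matches at 248 and 241, and TATAAA at 9. The Myl7 window held CATTCC at 70, a CArG box at 61 and GATAA at 41 bases before the start, and the Stard10 window held GATAA at 151 and CATTCC at 88. RefSeq windows were matched for 8 of the 10 members. In the Nppb window GATAA lay 94 and 83 bases, CATTCC 105 and TATAAA 31 bases before the start. Bmp10 held GATAA at 218 and 32, and Kcna5 held CATTCC at 128. Such matches are common: of 32851 promoter windows of this length, 22.6% held GATAA, 12.6% CATTCC, 10.1% TNAAGTG, 11.8% AGGTGT, 12.4% TATAAA and 1.47% a CArG box. The ERR response element TNAAGGTCA, present in 1.14% of all windows, its AGGTCA core (14.0%) and the MEF2 site (0.508%) had no match in any member's window. These letters describe the windows and say nothing of binding.

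Nppa, which encodes atrial natriuretic peptide, was higher in the knockout. Its signal was 7979.8 and 5605 on wild-type replicates 1 and 2 and 12669 and 9603 on knockout replicates 1 and 2. Both knockout arrays lay above both wild-type arrays, and the group means were 6792 ± 1679 and 11136 ± 2168 (SD, n = 2 each). The difference was 1.65-fold (log2 0.72; here and below, differences and folds are between means of log2 values), and the 4 ratios of a knockout to a wild-type array ran from 1.20- to 2.26-fold. It was 0.47 on the log2 scale without wild-type replicate 2 and 0.52 without knockout replicate 1, each under 1.5-fold.

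Nppb, the gene of B-type natriuretic peptide, lies next to Nppa on chromosome 4 with no gene between them, and its signals did not follow those of Nppa. Wild-type replicate 1 gave 87182.5, and wild-type replicate 2 gave 14065. The knockout arrays gave 20537 and 18469.8. The groups overlapped, and 1 wild-type array stood 4.25-fold above the next highest of the 4 arrays. The gap between the wild-type arrays was 6.20-fold, and only 0.362% of the 7453 brighter probe sets had a larger one. The means of the linear signals were 50624 ± 51702 and 19504 ± 1462 (SD, n = 2 each). The difference of the mean log2 values, in which the brightest array weighs less, was -0.85, or 1.80-fold lower in the knockout. Without wild-type replicate 1 it was 0.47, with both knockout arrays above the remaining wild-type array, and without wild-type replicate 2 it was -2.16. The sign of the Nppb difference therefore rested on wild-type replicate 1.

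**Figure D1:**
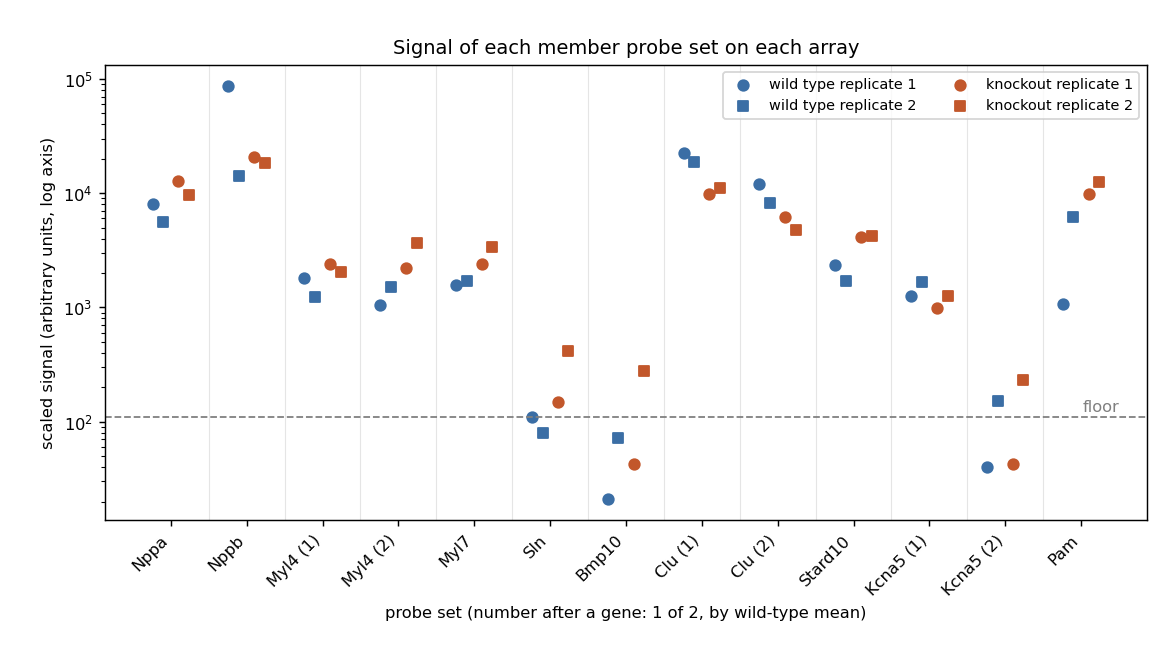
Scaled signal (log axis, arbitrary units) of the 13 member probe sets on each of the 4 arrays, wild type in blue and knockout in orange, with the floor of 110 as a dashed line. Nppb at 87182.5 and Pam at 1067 on wild-type replicate 1 lie far from that gene's other arrays, and Sln, Bmp10 and the weaker Kcna5 probe set lie near or under the floor.

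The atrial light chains of myosin were both higher in the knockout. Myl7, the regulatory light chain of atrial muscle, gave 1572 and 1707 in wild type and 2379.5 and 3373 in knockout. The groups did not overlap. The means were 1639.7 ± 95.2 and 2876 ± 703, a 1.73-fold difference (log2 0.79) that was 0.54 without knockout replicate 2, under 1.5-fold.

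Myl4, the essential light chain of atrial muscle, had 2 probe sets that agreed in direction but not in size. The first gave 1809.6 and 1236 in wild type and 2419 and 2056 in knockout, a log2 difference of 0.58, just under 1.5-fold. Its groups did not overlap, and the difference ran from 0.30 without wild-type replicate 2 to 0.85 without wild-type replicate 1. The other gave 1052 and 1494 against 2200.5 and 3663, a 2.26-fold difference (log2 1.18) that stayed between 0.81 and 1.55 without any 1 array. The 2 probe sets ordered the arrays differently within each genotype: knockout replicate 2 was the higher of its pair on the second and the lower on the first.

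Sarcolipin (Sln), a small membrane protein that inhibits the calcium pump of the sarcoplasmic reticulum in atrial muscle, was near the floor. It gave 111 and 80.0 in wild type and 148 and 411 in knockout. Knockout replicate 2 carried most of the difference: the log2 value was 1.16 with all arrays, 0.42 without that array and 1.90 without knockout replicate 1. With a floor at the 40th percentile of all values the difference was 0.14. Bmp10, a ligand of the bone morphogenetic protein family made by atrial muscle, gave 20.9 and 71.3 in wild type and 42.2 and 275 in knockout. Only knockout replicate 2 was above the floor, so the groups had no measurable order beyond that array, and without it the difference was 0.00. Sln and Bmp10 fell under the brightness filter, as did the weaker Kcna5 probe set, and 10 of the 13 member probe sets passed it.

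On Myl7, the second Myl4 probe set, Sln, Bmp10, Stard10, Pam and the weaker Kcna5 probe set the highest signal was on knockout replicate 2. On Nppa and the first Myl4 probe set it was on knockout replicate 1. The likeness of profiles was measured as the root mean square distance between log2 values centred on each probe set's own mean, over the 4 arrays. The 5 genes nearest to Nppa were Pla2g2c, Cyp2c38, Tdrp, Maged2 and Dpep3, at 0.064 to 0.085. Those nearest to Myl7 were Dpp6, Rgs16, Cga, Nav1 and Mst1r, at 0.030 to 0.067. Members were ranked by 1 probe set per gene, that of highest mean signal, which for Myl4 was the second. Among these, Stard10 was nearest to Nppa at 0.231, with 273 brighter probe sets nearer. The second Myl4 probe set was nearest to Myl7 at 0.252, with 402 nearer. The first Myl4 probe set, highest on knockout replicate 1 like Nppa, was left out of this ranking, so the nearest member holds only for the probe sets used. Nppb was at 1.089 from Nppa, farther than 7267 of the probe sets compared. With 4 arrays many profiles look alike, and no shared control is implied by these distances.

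Stard10, a phospholipid transfer protein, showed the clearest separation of the members that were higher. It gave 2340.1 and 1717.5 in wild type and 4102 and 4237 in knockout, with no overlap. The means were 2029 ± 440.2 and 4169 ± 95.8, a 2.08-fold difference (log2 1.06). Its smallest ratio of a knockout to a wild-type array, 1.75-fold, was the largest such ratio among those members, and the difference stayed between 0.83 and 1.28 without any 1 array.

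Pam encodes the enzyme that amidates peptide hormones and is abundant in the secretory granules of atrial muscle. It had the largest log2 difference of the 13 probe sets, 2.12, with 1067 and 6150.1 in wild type and 9852 and 12543 in knockout. The groups did not overlap, but the size rested on wild-type replicate 1, which lay 5.76-fold under the next lowest array. The gap between the wild-type arrays was larger for 0.496% of the 7453 brighter probe sets. Without wild-type replicate 1 the difference was 0.85, or 1.81-fold, and without wild-type replicate 2 it was 3.38. Thus the same wild-type array held the highest Nppb and the lowest Pam signal.

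Clusterin (Clu), a secreted chaperone, went the other way. Its stronger probe set gave 22402 and 18647 in wild type and 9841 and 11055 in knockout, with means of 20524 ± 2655 and 10448 ± 858. The knockout was lower by 1.96-fold (log2 -0.97), and both knockout arrays lay under both wild-type arrays. The weaker probe set gave 12075 and 8184 against 6158.5 and 4743, or 1.84-fold lower (log2 -0.88). Without any 1 array the differences stayed between -1.10 and -0.84 on the stronger and between -1.16 and -0.60 on the weaker probe set, so both kept direction and a 1.5-fold size. Of the members with 2 probe sets (Clu, Myl4 and Kcna5), only Clu had both agree in direction, size and lack of overlap. Those of Myl4 agreed in direction and lack of overlap. Both probe sets of a gene read the same samples, so their agreement does not replicate the genotype difference.

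Kcna5 encodes the potassium channel Kv1.5, which carries a repolarizing current in heart muscle. Its brighter probe set gave 1264 and 1655 in wild type and 995 and 1249 in knockout, a log2 difference of -0.38. The groups were separated by only 1.01-fold at their closest, and the difference was -0.18 without wild-type replicate 2. The weaker probe set gave 40.3 and 151 against 42.3 and 229.5, with a difference of 0.30 and overlapping groups, and 2 of its 4 arrays were at the floor.

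**Figure D2:**
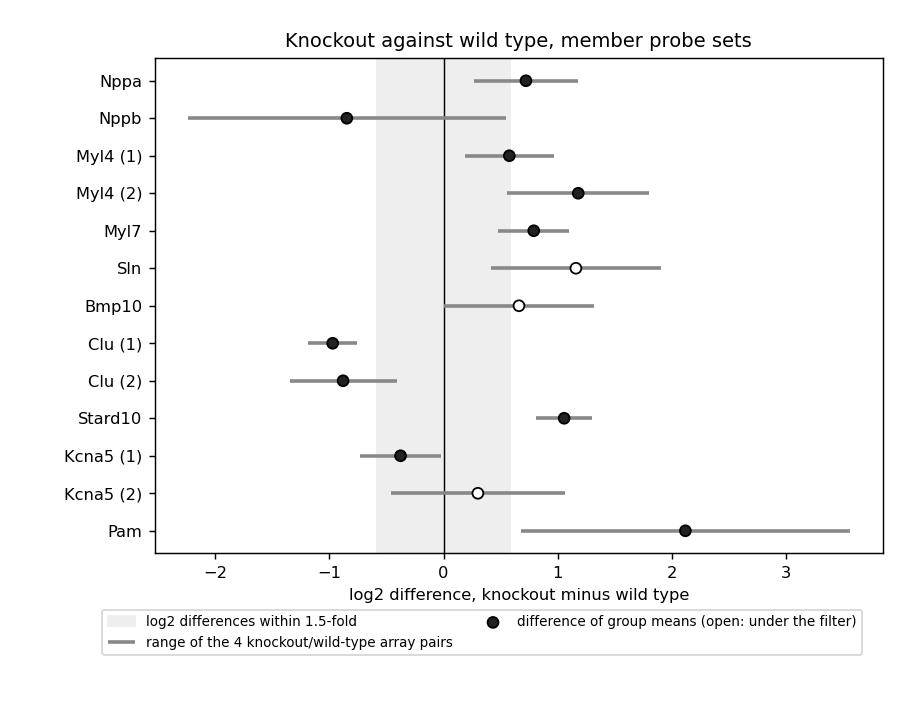
Log2 difference of group means, knockout minus wild type (horizontal axis), for the 13 member probe sets, with bars over the 4 knockout-to-wild-type array pairs and open points for probe sets under the brightness filter. Nppa, Myl4, Myl7, Sln, Stard10 and Pam lie wholly to the right of 0. Both Clu probe sets and the brighter Kcna5 probe set, whose bar ends at -0.02, lie wholly to the left. The bar of Nppb runs from -2.24 to 0.55.

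Over all 13 member probe sets, 9 had a higher and 4 a lower mean in the knockout. The median log2 difference was 0.66, against 0.00 over all 12422 probe sets other than controls, with or without a gene name. A difference of at least 1.5-fold without overlap of the groups was seen on 8: higher on 6 (Nppa, Myl7, the second Myl4 probe set, Sln, Stard10 and Pam) and lower on the 2 of Clu. Over all 12422 probe sets 12.0% met that rule, 7.71% higher and 4.27% lower. Members were chosen for these values, so nothing is read from the contrast between those shares. Just inside that rule was Nppa at 0.72. Just outside were the first Myl4 probe set, whose 0.58 is under 1.5-fold, and Bmp10, whose 0.66 is past 1.5-fold but whose groups shared the floor. With each array left out in turn, 7 to 9 of the 13 met the rule, and the median ran from 0.42 without knockout replicate 2 to 0.83 without knockout replicate 1. The median difference of the 7453 brighter probe sets was 0.03 as deposited and -0.094 after scaling arrays to a common median. Under that scaling Nppa was at 0.60, Myl7 at 0.67, Stard10 at 0.93 and the stronger Clu probe set at -1.09.

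**Figure D3:**
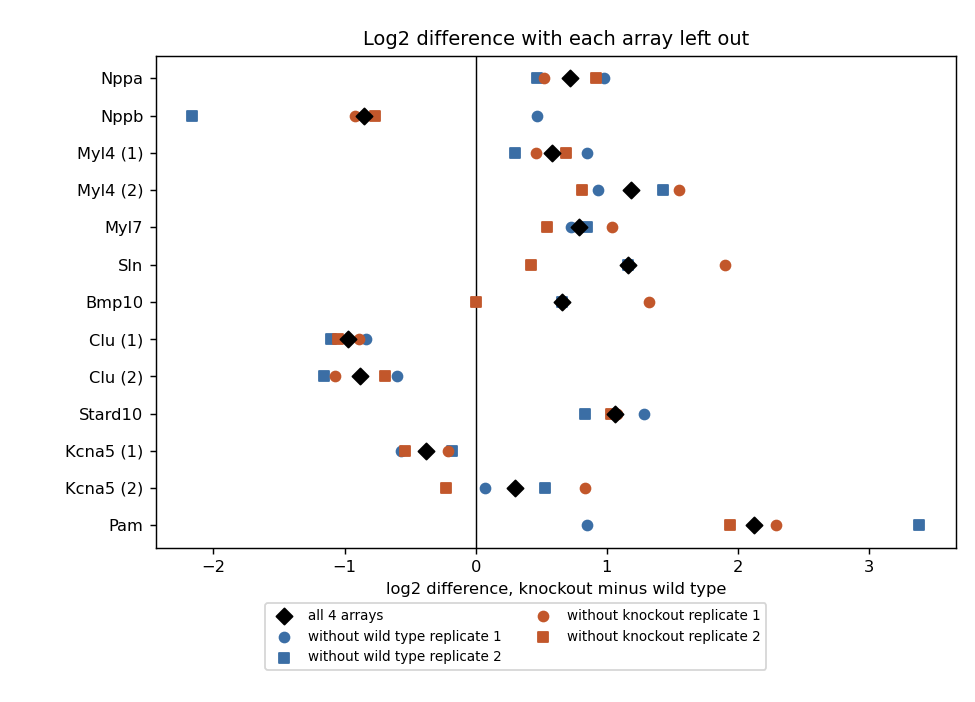
Log2 difference, knockout minus wild type (horizontal axis), of each member probe set with all 4 arrays (diamonds) and with each array left out. Nppb moves from -0.85 to 0.47 without wild-type replicate 1, Pam from 2.12 to 0.85, and Sln from 1.16 to 0.42 without knockout replicate 2. Stard10, the second Myl4 probe set and both Clu probe sets keep their sign and stay past 1.5-fold, as does Pam.

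The wider pathway was covered by 13 lists holding 168 other genes, of which 133 were measured and 92 were bright enough to test. Limma's adjusted p over all probe sets was under 0.05 for 0 of the 92. Without adjustment 12 of them lay under 0.05, of which 8 were higher and 4 lower in the knockout. That is 13.0%, against 6.79% of all probe sets tested. The values below therefore did not pass. The lists were drawn up with earlier results of these arrays known. Of all 7453 tested probe sets, 3964 had a higher and 3489 a lower mean in the knockout. These are the background for the directions counted in each list.

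Of the processing, receptor and cyclic GMP genes, 12 of 18 were measured and 6 were tested, with a median log2 difference of 0.12. Corin, the protease that cuts the atrial peptide from its precursor, gave 3428.5 and 3782 in wild type and 4564 and 5948 in knockout (log2 0.53, limma adjusted p = 0.752). Both knockout arrays were above both wild-type arrays, at under 1.5-fold. Npr3, the clearance receptor, gave 251 and 468 against 619 and 567 (log2 0.79, limma adjusted p = 0.760), and its other 2 probe sets were at 0.16 and 0.15. Furin, the convertase that processes the Nppb product, overlapped between groups at log2 0.04. Npr1, the cyclic GMP-forming receptor of both hormones, was at the floor on all 4 arrays, as were Mme, Prkg2 and Rgs4.

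Of the regulated secretory pathway, 7 of 15 measured genes were tested, with 2 higher, 5 lower and a median of -0.12. By the 1.5-fold rule 0 of the 7 were separate. Of all tested probe sets, 6.84% were higher and 4.20% lower by that rule. The 0 among 7 genes is therefore not read as a result. Its brightest genes were Cpe, a carboxypeptidase that trims peptide precursors, at 9238 and 13635.5 in wild type and 11007 and 8060.5 in knockout, and the convertase Pcsk6, at a log2 difference of 0.27. Both overlapped between groups.

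Of the transcription factors known to drive atrial or natriuretic peptide genes, 11 of 14 measured genes were tested, with 8 higher and a median of 0.23. Mef2a gave 3799 and 4635 in wild type and 6097 and 7276 in knockout (log2 0.67, limma adjusted p = 0.705), but its other probe set was at -0.07. Mef2d was at 0.27 without overlap, and Nkx2-5, the cardiac homeobox factor, overlapped at 0.07 on the log2 scale. No value of Tbx5, Srf, Nfatc4 or Tbx20 was analysed here.

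Partners of the member proteins had a median of 0.10 over 16 tested genes. Myh6, the myosin heavy chain of adult mouse heart, and Atp2a2, the calcium pump that sarcolipin inhibits, overlapped between groups at -0.17 and -0.07. By the rule of 1.5-fold without overlap, which 6.84% of all tested probe sets met on the higher side, 1 of the 16 was higher. This was Bmpr1a, a type I receptor for bone morphogenetic proteins, which gave 441 and 163 in wild type and 630.3 and 947 in knockout (log2 1.53, limma adjusted p = 0.722).

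Other atrial and conduction genes and ventricular genes serve as chamber markers. Of the former, 5 of 11 measured genes were tested, with 3 higher and 2 lower. Dkk3, a secreted Wnt modulator, gave 529.9 and 487 against 776 and 848 (log2 0.67, limma adjusted p = 0.694). Gja5, the atrial gap junction protein connexin 40, overlapped between groups at 0.23, and Kcnk3, an atrial background potassium channel, at -0.05. The summed signal of the 11 genes was 5596 to 6141 in wild type and 6456 to 6532 in knockout, and the sums overlapped without Shox2, at 5131 to 5487 and 4890 to 6008. Of the ventricular genes, Myl2, the ventricular regulatory light chain, gave 184675 and 189007 in wild type and 154809 and 205416 in knockout, and Myl3, the ventricular essential light chain, had a log2 difference of -0.11. Both overlapped, and the labelled ventricle thus carried bright ventricular markers on every array. How much atrial tissue each sample held is not given in the labels, and its part in the differences was not tested.

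The load response genes, linked to stretch or overload of the ventricle like the natriuretic peptides, had lower means: 9 of 9 tested had a lower mean in the knockout, 4 of them by at least 1.5-fold without overlap (4.20% of all tested probe sets were lower by that rule), with a median of -0.40. The median over all tested probe sets was 0.03. Acta1, skeletal α-actin, gave 48309 and 31096 in wild type and 19417 and 18372.5 in knockout (log2 -1.04, limma adjusted p = 0.694). Csrp3, the muscle LIM protein, was at -0.83 and Fhl1, another LIM protein, at -1.20, with its other probe sets at -0.95 and 0.00. Rcan1, a target and inhibitor of calcineurin, gave 12019 and 3433 in wild type and 2301 and 2589.9 in knockout. Ankrd1, which is induced by stretch, overlapped between groups at -0.26. Like Nppb, each of Acta1, Csrp3, Fhl1, Rcan1 and Ankrd1 was highest on wild-type replicate 1. Fhl2, also of this list, was highest on wild-type replicate 2, and Nppa had its highest signals in the knockout. The 11 measured genes summed to 280170 and 225605 on wild-type replicates 1 and 2, and to 158368 and 183787 on knockout replicates 1 and 2. The part of wild-type replicate 1 in these lower means was not tested.

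**Figure D4:**
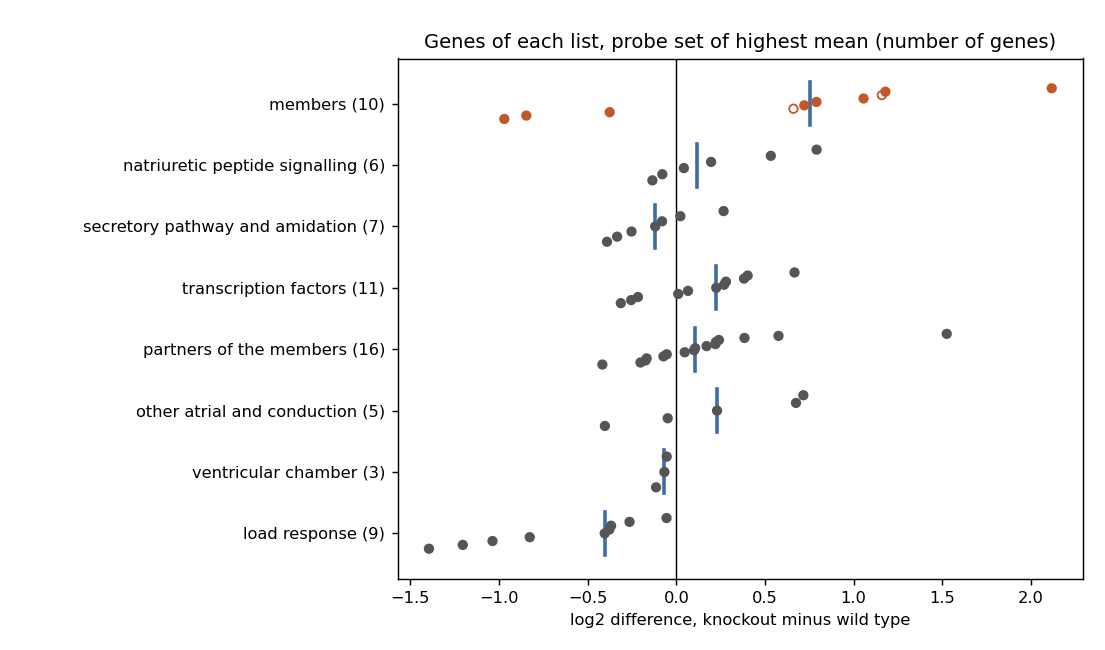
Log2 difference, knockout minus wild type (horizontal axis), of each gene by its brightest probe set, for the members and 7 lists; blue bars are medians, and open points are members under the brightness filter. The 9 load response genes all lie left of 0, and 7 of the 10 members lie right of it. Of all 7453 tested probe sets, 3489 were lower and 3964 higher. Members and lists were chosen with earlier results of these arrays known, so nothing is read from the contrast between them.

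Markers of other cells of the heart are given beside the members, and none of them passed limma's adjusted test. Directions are counted on few genes per list, and of all 7453 tested probe sets 3964 were higher and 3489 lower. The smooth muscle list summed to 24789 to 25842 in wild type and 29931 to 39405 in knockout, but 3 of 8 tested genes were higher and 5 lower, with a median log2 difference of -0.04. The higher sum came from Acta2, smooth muscle α-actin, at 4135 and 2909 against 18753 and 10915.5 (limma adjusted p = 0.656). Without it the list summed to 20653.5 to 22933 in wild type and 19015 to 20651 in knockout. Fibroblast and valve genes summed to 62398 to 73554.5 and 85146 to 89652, with 6 of 7 higher, Lum at 0.79 and Col1a1 at 0.63 on the log2 scale, a second Col1a1 probe set being at 0.23. Epicardial genes summed to 3137 to 3559.9 and 3829 to 3921, with 2 of 3 higher and Aldh1a2 and Krt19 at the floor on every array; without Upk3b they overlapped, at 2182 to 2420.0 and 2395 to 2768. Endothelial and endocardial genes summed to 32869.5 to 39558 and 28827 to 32377, with 8 of 10 lower and Nfatc1 at -0.69; without Cdh5 they overlapped, at 28234 to 32974 and 24800.0 to 28773. The fibroblast sums stayed apart without Dcn, at 20158 to 23230 and 27112 to 31475. The sums of adipocyte genes overlapped, at 72165 to 72456 and 67089 to 78977, with 2 of 5 higher, as did those of blood genes, at 149533.5 to 205115 and 159136.5 to 224658, with 3 of 4 higher. Adipoq, adiponectin, was at 1.44, Lep, leptin, at 0.76 with another probe set at -0.76, Cidea, a lipid droplet protein, at -0.76 and Car2, a carbonic anhydrase, at 1.09. The part of these cells in the members' differences was not tested.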

How the data were processed

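Total RNA of mouse ventricle was made into biotin-labelled cRNA and hybridized to one-colour Affymetrix arrays, per the labels' protocols. The authors deposited 1 linear intensity per probe set and array, already scaled by array; the software, summary method and background correction are not given in the sources used here. Arrays carry no counts, so their number, 4, limits the precision. Samples were grouped by title, 2 per genotype. Titles number them 1 and 2 without saying that numbers pair them, and whether they are separate animals is not given; the p-values then cover only sample-to-sample spread, some of which may be technical.

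From the 12488 probe sets, 66 controls were left out. Gene names came from the platform annotation, updated by gene identifier to RefSeq (GRCm38.p6): 10833 probe sets had 1 gene, of which 10817 matched RefSeq, 396 had several and 1193 had none. Signals under 110 (the 20th percentile of all values) were set to it and log2 was taken. Probe sets with a mean under 350.6 (the 40th percentile) were left out of the test, leaving 7453. Members were shown whatever their brightness. Limma 3.58.1 (lmFit, eBayes, Benjamini-Hochberg; R 4.3.3), tested on simulated data first, compared the genotypes. With 2 arrays a group the smallest exact two-sided permutation p is 0.333, so no such test was run. A count without a model took differences of at least 1.5-fold with no overlap of the groups.

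The members and all lists were chosen with earlier results of these data known. Named genes were all members, Esrra, and of each list those past the threshold, up to 4 with the largest difference of at least 1.5-fold without overlap, and the 2 brightest; the 5 profiles nearest to Nppa and Myl7 were also named. Alternatives were the floor, the filter, 2 other normalizations, suffixed probe sets left out, the sample number as a block, another prior and each array left out. List sums without the gene of largest signal difference were added after seeing the data.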

Additional observations from a re-analysis of the deposited data

How the results depend on the processing

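Of 52 member values under other floors and normalizations, 50 moved by less than the replicate SD. With the floor at the 40th percentile Sln moved by more (0.14), and Bmp10, with no array above that floor, by an amount equal to its SD (0.00). With 2 arrays a group, a left-out array cannot move a value beyond that SD, so the 52 values without 1 array were not held to it: 8 changed by over 1.5-fold, both ways on Nppb, Pam, Sln and Bmp10, and 2 turned sign. The sign turned for Nppb without wild-type replicate 1 (0.47) and for the weaker Kcna5 probe set without knockout replicate 2 (-0.23). The median of the members was 0.14 with the floor at the 40th percentile, 0.42 to 0.83 without each array, and within the replicate SD of 0.66 under the other settings. Their count of 8 stayed at 7 to 9; the filter at the 40th percentile, applied to members as an alternative chosen after seeing the data, gave 7 of 10 and a median of 0.65.

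Over all probe sets, limma called 1. It called 0 with floors at the 5th and 40th percentile, with no filter, without suffixed probe sets and without each array (0 to 0), and 2 with the filter at the 60th percentile and with the trend and robust prior. With the sample number as a replicate block it called 0. Deviations of same-numbered arrays correlated at 0.011, so no strong shift was shared by number. That value cannot show whether the samples were paired. Unadjusted p-values under 0.05 numbered 403 to 1099. The count of 823 at 1.5-fold without overlap was 1488 with no filter (more probe sets), 327 with the filter at the 60th percentile (fewer) and 1383 to 1523 without each array, where fewer arrays can overlap. Its split was 510 higher and 313 lower as deposited, 396 and 414 after quantile normalization, and 328 and 518 after median scaling; the members' split of 6 and 2 was the same under all 3. Signals near the floor limit Sln, Bmp10 and the weaker Kcna5 probe set.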

Other observations

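Wild-type replicate 1 held 5 of the 7453 brighter probe sets at least 4-fold above every other array and 10 at least 4-fold below. On the other arrays these counts were 4 and 19 (wild-type replicate 2), 2 and 11 (knockout replicate 1) and 2 and 8 (knockout replicate 2). Nppb was among the 5 above, at 87182.5 the brightest of them, with Nsf at 1541 against 159 to 266 elsewhere and Adcy3, an adenylyl cyclase, at 2072 against 275 to 509. Pam lay farthest below of all, 5.76-fold under the next array, with Flt1, a receptor for vascular endothelial growth factor, at 227 against 918 to 1394. The genes named here were picked with their values in view.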
